A study of Mus musculus with 8 samples.

Results

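The CCN family of secreted matricellular proteins was followed in fibro-adipogenic progenitors (FAPs), the interstitial mesenchymal progenitors of skeletal muscle, after injury. Its members were taken by name from the deposited expression tables as Ccn1 (Cyr61), Ccn2 (Ctgf), Ccn3 (Nov), Ccn4 (Wisp1) and Ccn5 (Wisp2), which are 5 of the 55276 gene symbols in all. Expression was measured by RNA sequencing of 8 libraries of GFP+ cells sorted from the tibialis anterior muscle of adult mice after freeze-pierce injury. Controls (Ctrl) were Osr1 flox/+ CAGG Cre+ and knockouts (cKO) were Osr1 flox/flox CAGG Cre+, with 2 libraries of each genotype at 3 and at 7 days post injury (dpi). All mice had received tamoxifen on the day of injury and on the following days, and the Cre is ubiquitous, so recombination was not limited to FAPs. The sort relied on GFP from the recombined Osr1 allele, so the control cells also carried 1 recombined copy and the comparison is between a heterozygous and a homozygous deletion. A library held 1 mouse at 3 dpi and 4 pooled mice at 7 dpi, so day and pool size cannot be told apart. The paper names 2 sequencing instruments with different read lengths. Which libraries were run on which, or shared a run, is not given in the sources used here, so instrument may also go with day.

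CCN proteins are built from cysteine-rich modules that bind integrins, heparan sulfate proteoglycans and growth factors, and they act as signals between cells and matrix rather than as structural fibers. Ccn1 and Ccn2 are textbook targets of the mechanosensitive co-activators YAP and TAZ acting through TEAD factors, are induced rapidly by serum, and Ccn2 also responds to TGFβ and accompanies fibrosis. Ccn3 often acts against Ccn2, Ccn4 is a Wnt-inducible member known as a FAP signal that supports muscle stem cells, and Ccn5 lacks the C-terminal module of the others.

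That family signature is visible in the reference transcripts of GENCODE M21 (GRCm38, the assembly of mm10). The stretch shown is the part of the first module in which a glycine codon is followed by a fixed spacing of cysteine codons, and the cysteine codons are in capitals.
Ccn1, codons 49 to 56: ggcTGCggcTGCTGTaaggtcTGC
Ccn2, codons 52 to 59: ggcTGCggcTGCTGCcgcgtcTGC
Ccn3, codons 54 to 61: ggcTGCtccTGCTGTccggtgTGC
Ccn4, codons 72 to 79: ggcTGTgaaTGCTGTaagataTGT
Ccn5, codons 49 to 56: ggcTGTggcTGCTGTcgagtgTGT
Each coding sequence held exactly 1 such stretch. Between members, the stretch shared from 14 of 24 bases (Ccn2 and Ccn4) to 20 of 24 (Ccn1 and Ccn2). Ccn5 had 4 coding exons, 251 codons and 29 cysteine codons, whereas the other members had 5 coding exons, 348 to 379 codons and 38 to 40 cysteine codons.

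The Ccn1 promoter was the only member's promoter among the RefSeq sequences used here (GRCm38.p6). Its 250 bases before the start, at chr3:145649986-145650235 on the minus strand, are shown because Ccn1 was the most abundant member in 3 of the 4 groups and is a TEAD target. Capitals mark the match to the TEAD core GGAATG, which is on the opposite strand and reads CATTCC here, and the TATAAA element.
Ccn1 promoter: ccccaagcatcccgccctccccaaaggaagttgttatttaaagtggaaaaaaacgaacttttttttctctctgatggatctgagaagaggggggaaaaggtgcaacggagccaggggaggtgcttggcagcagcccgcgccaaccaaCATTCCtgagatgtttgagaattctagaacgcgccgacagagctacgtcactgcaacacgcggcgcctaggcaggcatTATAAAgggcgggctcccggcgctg
On either strand, GGAATG occurred in 12.6% and TATAAA in 12.4% of the 32851 promoters of this length. The SMAD element CAGACA (17.1% of promoters), the AP-1 element TGACTCA (4.46%) and the SRF CArG box (1.47%) were not found in this window. The CArG box was searched by its usual consensus, and the marked matches do not overlap.

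Depth was 36516513 to 51096350 recovered fragments per library, and members were backed by 806 to 51515 fragments per library, so the counting error alone was 0.441% to 3.52%. Replicates of a group differed by 1.03 to 2.41 times in TPM. The 2 Ctrl libraries at 3 dpi stood apart most, with a root mean square difference of 0.52 on the log2 scale over 17367 genes, against 0.36, 0.29 and 0.29 in cKO at 3 dpi, Ctrl at 7 dpi and cKO at 7 dpi. Osr1, the targeted gene, was at 105 and 91.0 TPM (a transcript level corrected for gene length and scaled to the same total in every library) in Ctrl and 70.7 and 71.9 TPM in cKO at 3 dpi. At 7 dpi it was at 67.6 and 71.6 TPM in Ctrl and 64.4 and 60.8 TPM in cKO. Counted over the whole gene, Osr1 was lower in the cKO libraries on both days without being lost. From the same sequencing data, the paper reported that the floxed exon was efficiently deleted and that the next exon consequently lacked expression. Reads were not split by exon here, so whether the remaining Osr1 reads come from outside the deleted part was not tested. The FAP marker Pdgfra was at 197 to 365 TPM in all libraries, whereas the leukocyte marker Ptprc did not exceed 0.216 TPM and the endothelial marker Pecam1 did not exceed 6.25 TPM.

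FAPs expressed all 5 members, at levels that differed widely between members. At 3 dpi, Ccn1, Ccn2 and Ccn5 made up nearly all of the CCN transcripts, whereas at 7 dpi Ccn1 alone held over 50% of them. Summed over the 5 genes, CCN transcripts reached 3558 and 2820 TPM in Ctrl and 3565 and 2451 TPM in cKO at 3 dpi. At 7 dpi the sum was 2392 and 2274 TPM in Ctrl and 1967 and 2121 TPM in cKO. In the deposited TPM every library at 7 dpi was thus below every library at 3 dpi, though only narrowly (2392 against 2451 TPM). The scaling used in the tests below divides these 2 libraries by 0.948 and 1.001, which reverses their order. The genotypes overlapped at 3 dpi but not at 7 dpi. With 2 libraries a group, an exact two-sided permutation test of such a sum cannot go below p = 0.333. Ccn6 (Wisp3), the remaining gene of the family, was listed at 0.0566 to 0.953 TPM, and part of its exons is shared with Tube1.

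**Figure D1:**
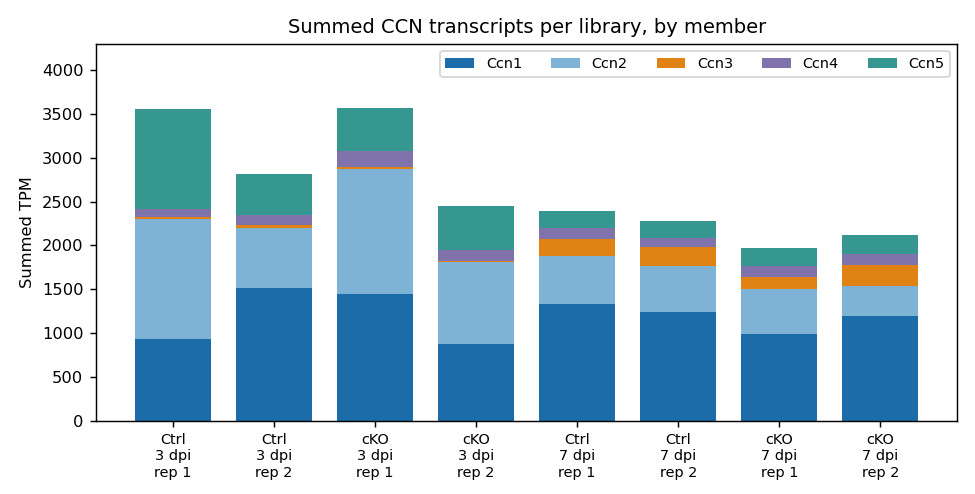
Stacked bars show the summed TPM of the 5 CCN genes in each of the 8 libraries, colored by member. In deposited TPM, without further scaling, the 4 libraries at 3 dpi (2451 to 3565 TPM) lie above the 4 at 7 dpi (1967 to 2392 TPM). The Ccn2 and Ccn5 segments are smaller and the Ccn3 segment is larger at 7 dpi.

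In Ctrl at 3 dpi the order of the mean levels was Ccn1, Ccn2, Ccn5, Ccn4 and Ccn3, and the libraries of Ccn1 and Ccn2, and of Ccn2 and Ccn5, overlapped. In cKO at 3 dpi Ccn2 and Ccn1 were level, with overlapping libraries and a ratio of means of 1.01, and Ccn5, Ccn4 and Ccn3 followed without overlap. At 7 dpi Ccn1 led Ccn2 by 2.42 times in Ctrl and 2.57 times in cKO, Ccn3 and Ccn5 overlapped in the next place, and Ccn4 was lowest in both genotypes. The ratio of Ccn5 to Ccn3 TPM was 12.7 to 37.1 in the libraries at 3 dpi and 0.840 to 1.41 in those at 7 dpi. The ratio of Ccn2 to Ccn1 TPM was 0.451 to 1.47 at 3 dpi and 0.287 to 0.511 at 7 dpi, so these ranges overlapped.

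**Figure D2:**
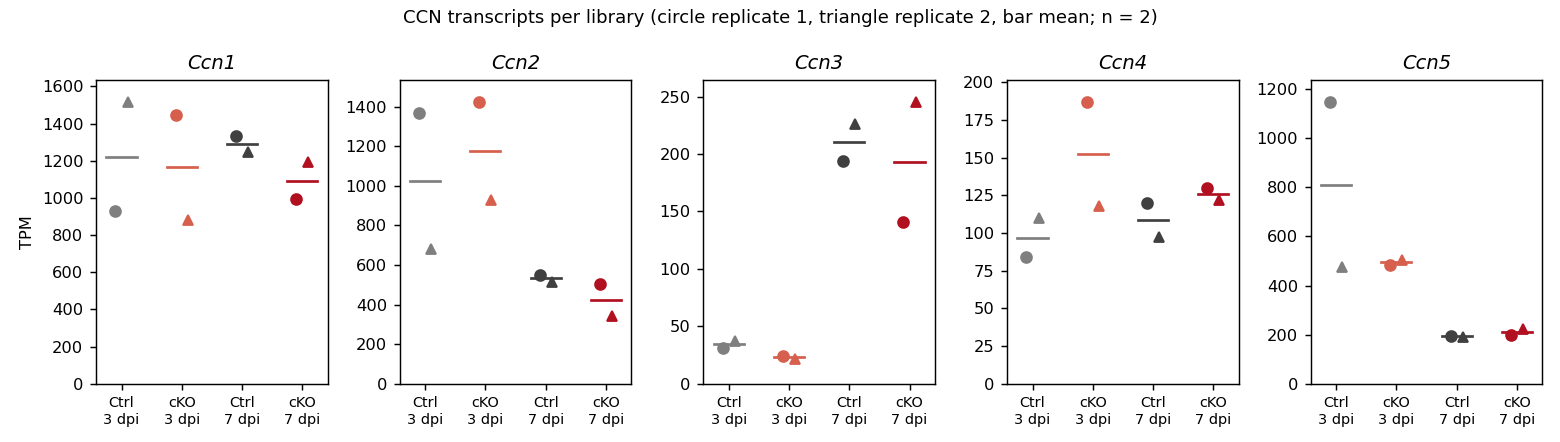
Each panel shows the TPM of 1 CCN gene in the 4 groups, with a circle for replicate 1, a triangle for replicate 2 and a bar for the mean of the 2 libraries. Ccn3 is at 21.5 to 37.5 TPM at 3 dpi and at 141 to 245 TPM at 7 dpi, and Ccn5 in Ctrl at 3 dpi has its libraries at 1147 and 475 TPM.

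The change from 3 to 7 dpi was asked in each genotype with limma on log2(scaled TPM + 1) over all 8 libraries, and a gene was called where it changed more than 1.2-fold with a Benjamini-Hochberg adjusted p under 0.1. Ccn3 rose and Ccn5 fell in both genotypes, and Ccn2 fell in cKO. That is 2 of 5 members called in Ctrl and 3 of 5 in cKO. Of the 17367 genes tested, 54.4% were called in Ctrl and 50.0% in cKO, so the number of members called was close to the background, and the sizes of the changes are the more informative values. In bulk RNA, more cells that express a gene and more RNA per cell cannot be told apart.

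Ccn3 (chromosome 15, 54745702 to 54754039, plus strand), a member often placed opposite Ccn2, had the steepest change. Its TPM was 30.9 and 37.5 in Ctrl at 3 dpi, 24.3 and 21.5 in cKO at 3 dpi, 194 and 226 in Ctrl at 7 dpi, and 141 and 245 in cKO at 7 dpi. All 4 libraries at 7 dpi were above all 4 at 3 dpi. Such a separation of the days was seen for 3 of the 5 members (Ccn2, Ccn3 and Ccn5) and for 52.1% of the 17367 genes. The log2 fold change (7 minus 3 dpi) was 2.66 ± 0.24 (SE, adjusted p = 0.000373) in Ctrl and 2.91 ± 0.24 (adjusted p = 0.000551) in cKO. Of 17367 genes, 128 rose more in Ctrl and 56 rose more in cKO.

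Ccn5 (chromosome 2, 163820861 to 163833146, plus strand), the member without the C-terminal module, went the other way. It was at 1147 and 475 TPM in Ctrl and 483 and 505 TPM in cKO at 3 dpi, and at 196 and 190 TPM in Ctrl and 199 and 221 TPM in cKO at 7 dpi. Every 7 dpi library was lower, and replicate 1 of Ctrl at 3 dpi stood alone at the top. The log2 fold change was -1.85 ± 0.33 (adjusted p = 0.00412) in Ctrl and -1.30 ± 0.33 (adjusted p = 0.0193) in cKO. Without that library the value in Ctrl was -1.26 (adjusted p = 0.000531), and without replicate 2 of Ctrl at 3 dpi it was -2.46 (adjusted p = 0.000441).

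Ccn2 (chromosome 10, 24595442 to 24598683, plus strand), the TGFβ- and YAP-responsive member, was at 1367 and 683 TPM in Ctrl and 1423 and 927 TPM in cKO at 3 dpi. At 7 dpi it was at 549 and 517 TPM in Ctrl and 507 and 342 TPM in cKO. Here too every 7 dpi library was below every 3 dpi library, but replicates at 3 dpi differed by up to 2.0 times. The log2 fold change was -1.53 ± 0.36 (adjusted p = 0.0146) in cKO, where 409 of 17367 genes fell more. In Ctrl it was -0.78 ± 0.36 (adjusted p = 0.116) and was not called. Leaving out each library in turn gave values from -1.25 to -0.32. The antisense gene Gm15270 shares 665 exonic bases with Ccn2 (23.2% of its exons), and was at 1.03 to 7.28 TPM.

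Ccn1 (chromosome 3, 145646976 to 145649981, minus strand) and Ccn4 (chromosome 15, 66891320 to 66923201, plus strand) did not pass the test for day. Ccn1 was at 930 and 1514 TPM in Ctrl and 1448 and 879 TPM in cKO at 3 dpi, and at 1333 and 1245 TPM in Ctrl and 991 and 1191 TPM in cKO at 7 dpi. The 7 dpi libraries lay within the range of the 3 dpi libraries. Its log2 fold change was 0.20 (95% confidence interval -0.55 to 0.95) in Ctrl and -0.12 (-0.87 to 0.63) in cKO. Ccn4 was at 84.0 and 110 TPM in Ctrl and 187 and 118 TPM in cKO at 3 dpi, and at 120 and 97.1 TPM in Ctrl and 130 and 122 TPM in cKO at 7 dpi. Its log2 fold change was 0.24 (-0.35 to 0.83) in Ctrl and -0.30 (-0.89 to 0.29) in cKO. In cKO that value was -0.65 (adjusted p = 0.0807) without replicate 2 of cKO at 3 dpi and 0.034 without replicate 1.

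**Figure D3:**
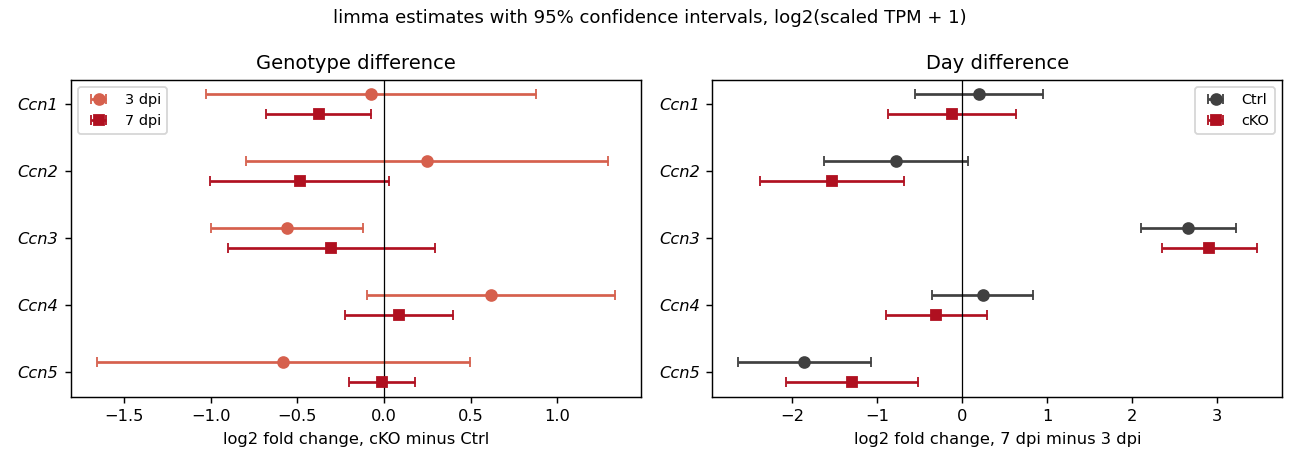
Points show the log2 fold change of each CCN gene from limma on log2(scaled TPM + 1), with 95% confidence intervals, for cKO minus Ctrl on each day (left) and 7 minus 3 dpi in each genotype (right). The intervals of Ccn3 and Ccn5 for day lie away from 0 in both genotypes, and on the left only those of Ccn3 at 3 dpi (upper bound -0.12) and Ccn1 at 7 dpi (upper bound -0.073) do.

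The effect of losing the remaining Osr1 copy was asked within each day on its 4 libraries. At 3 dpi, where a call needed a change of more than 1.2-fold and an unadjusted limma p under 0.05, Ccn3 was lower in cKO and no other member was called. That is 1 of 5 members, and 6.28% of the 15697 genes tested were called (374 higher and 611 lower). After Benjamini-Hochberg adjustment none of these genes had a limma p under 0.1, and 985 had an unadjusted p under 0.05. Both cKO libraries of Ccn3 (24.3 and 21.5 TPM) were below both Ctrl libraries (30.9 and 37.5 TPM), and the log2 fold change was -0.56 ± 0.17 (adjusted p = 0.772). The call was lost without replicate 2 of Ctrl (-0.42), without replicate 2 of cKO (-0.45) and when all 8 libraries shared 1 fit (-0.53), although the direction was the same each time.

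Ccn4 was the only other member whose genotypes did not overlap at 3 dpi, with 84.0 and 110 TPM in Ctrl below 187 and 118 TPM in cKO. With 2 libraries a group, 36.2% of the genes tested at 3 dpi had genotypes that did not overlap in TPM, so 2 of 5 members is close to the background. The log2 fold change was 0.62 ± 0.28 (adjusted p = 0.824). The unadjusted rule was met without replicate 2 of cKO (0.97) and in the fit of all 8 libraries (0.65). Replicate 1 of cKO, the highest library for Ccn4, was also the highest of the 4 for the contractile gene Acta2, which was at 198 and 337 TPM in Ctrl and 709 and 276 TPM in cKO. The part of Acta2-expressing cells in the Ccn4 value was not tested.

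For Ccn1, Ccn2 and Ccn5 the genotypes overlapped at 3 dpi, and leaving out 1 library turned the direction. The log2 fold change of Ccn5 was -0.58 ± 0.42 (95% confidence interval -1.66 to 0.50), but 0.041 without replicate 1 of Ctrl and -1.21 (adjusted p = 0.134) without replicate 2 of Ctrl. That of Ccn2 was 0.25 ± 0.41 and ranged from -0.25 without replicate 2 of Ctrl to 0.73 without replicate 1. That of Ccn1 was -0.07 ± 0.37 and ranged from -0.46 without replicate 1 of cKO to 0.31 without replicate 2 of cKO.

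**Figure D4:**
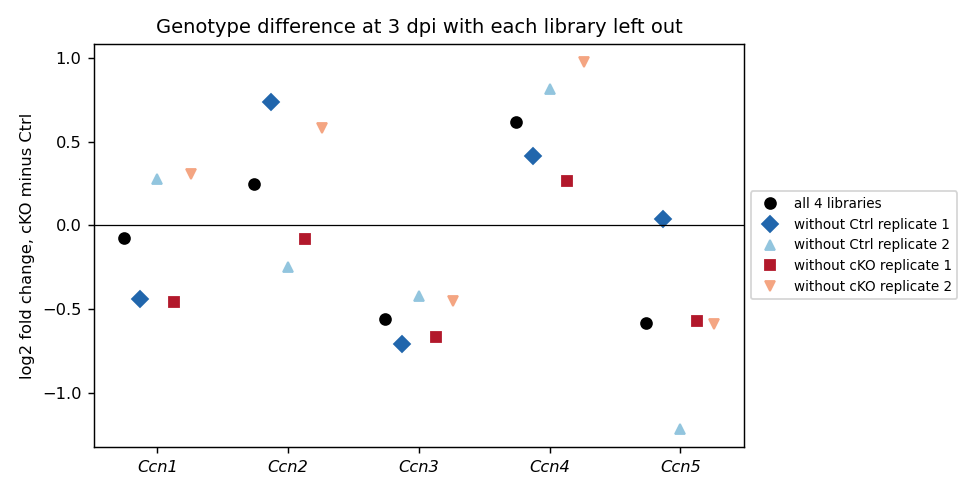
The log2 fold change (cKO minus Ctrl) of each CCN gene at 3 dpi is shown for all 4 libraries (black circle) and with each library left out. Ccn3 stays below 0 (-0.71 to -0.42) and Ccn4 above 0 (0.27 to 0.97), whereas Ccn1, Ccn2 and Ccn5 have values on both sides of 0.

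Immediate early genes, which tissue dissociation is known to induce, were compared with the scatter of Ccn1 at 3 dpi. Replicate 2 of Ctrl (1514 TPM) and replicate 1 of cKO (1448 TPM) were high for Ccn1. Both of these libraries were above both others for 6 of 16 immediate early and dissociation genes (Fos, Jun, Egr1, Ier2, Ier3 and Dusp1), and for the other 10 they were not. Ier2 was at 430 and 405 TPM in these libraries and at 306 and 256 TPM in replicate 1 of Ctrl and replicate 2 of cKO. Fos was at 2465 and 2435 TPM against 1543 and 1354 TPM. Junb did not split this way, with 1476 and 1610 TPM against 1828 and 1432 TPM, and neither did Fosb, with 1777 and 1655 TPM against 1630 and 1807 TPM. The share of all genes that split this way at 3 dpi was not determined, so 6 of 16 has no background beside it. The genes named here were chosen after their values were seen, and what dissociation contributes to the Ccn1 values was not tested.

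**Figure D5:**
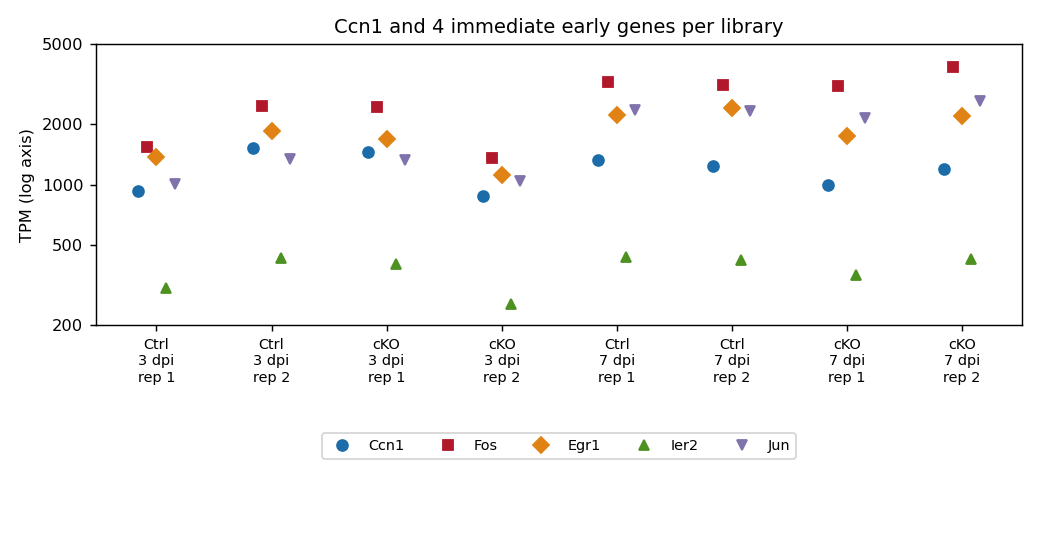
TPM on a log axis is shown per library for Ccn1 and for Fos, Egr1, Ier2 and Jun, which are 4 of the 6 genes of the list of 16 that split as Ccn1 does at 3 dpi. On that day all 5 are higher in replicate 2 of Ctrl and replicate 1 of cKO (Ccn1 1514 and 1448 TPM) than in the other libraries (930 and 879 TPM).

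At 7 dpi no member was called in cKO against Ctrl at an adjusted p under 0.1, where 0.0664% of 16576 genes were (3 higher and 8 lower). With DESeq2 at the same thresholds, the paper reported more changed genes on this day. By the unadjusted rule used at 3 dpi, Ccn1 was lower in cKO, which is 1 of 5 members, and 11.1% of genes were called (864 higher and 979 lower). The scaling matters on this day: in the deposited TPM the median gene was 0.11 higher in cKO on the log2 scale, and the unadjusted rule then gave 2280 higher and 468 lower genes. In TPM the genotypes did not overlap for 4 of 5 members (all but Ccn3) and for 53.5% of the 16576 genes. Ccn1 was at 1333 and 1245 TPM in Ctrl and 991 and 1191 TPM in cKO, and its log2 fold change after scaling was -0.38 ± 0.12 (adjusted p = 0.341). The unadjusted call was lost on unscaled TPM (-0.25), in the fit of all 8 libraries, and without replicate 1 of Ctrl (-0.32) or replicate 1 of cKO (-0.28).

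Ccn2 did not overlap between genotypes at 7 dpi either, with 549 and 517 TPM in Ctrl and 507 and 342 TPM in cKO, and its log2 fold change was -0.49 ± 0.21 (adjusted p = 0.417). It met the unadjusted rule without replicate 2 of Ctrl or replicate 1 of cKO, in fits where the spread comes from the other genotype alone and the remaining library is assumed to vary like it. Ccn3 overlapped, because replicate 2 of cKO was the highest library (245 TPM) and replicate 1 the lowest (141 TPM), and its value was -0.30 ± 0.24, or -0.67 with the unadjusted rule met when replicate 2 of cKO was left out. Ccn4 (0.09, 95% confidence interval -0.23 to 0.40) and Ccn5 (-0.01, -0.20 to 0.18) were closest to 0. In TPM, both cKO libraries of Ccn4 and of Ccn5 were above both Ctrl libraries, and for Ccn5 the direction depended on the scaling, since its log2 fold change was 0.12 without it.

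After scaling, all 16 immediate early and dissociation genes had a log2 fold change below 0 in cKO at 7 dpi, with a median of -0.27 against 0.00 for all genes, but on unscaled TPM 11 were below and 5 above 0 (Dusp1, Fos, Ier3, Jun and Klf2), with a median of -0.13 against 0.11 for all genes. After scaling, 6 of them met the unadjusted rule, against 11.1% of all genes, while none met the adjusted one. The largest single differences by p were in the heat shock genes Dnajb1 (-0.78 ± 0.15, adjusted p = 0.232), Hspa1b (-0.89 ± 0.23, adjusted p = 0.301) and Hspa1a (-0.86 ± 0.24, adjusted p = 0.306). Summed over the list, replicate 1 of cKO, the lowest library for Ccn1 on this day, was at 18008 TPM, and the other 3 libraries were at 21792 to 22496 TPM. The part of these genes in the Ccn1 value was not tested.

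No CCN gene passed the test for a genotype effect that differed between the days. The interaction in limma over 8 libraries had adjusted p from 0.873 to 0.966 for the 5 members, no gene of 17367 passed an adjusted p under 0.1 (0.0% called), and 1176 had an unadjusted p under 0.05. By the unadjusted rule none of the 5 members and 6.77% of genes were called. The widest values were -0.75 ± 0.51 for Ccn2, 0.56 ± 0.47 for Ccn5 and -0.54 ± 0.36 for Ccn4. For Ccn5 it was 1.15 (adjusted p = 0.0774) without replicate 2 of Ctrl at 3 dpi and -0.038 without replicate 1.

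The pathways upstream of the family were read from lists of their genes. Of 20 YAP/TEAD target genes other than the CCN members, 10 were called for day in Ctrl (6 higher and 4 lower at 7 dpi, against 54.4% of all genes called) and 10 in cKO (5 higher and 5 lower, against 50.0%). The median log2 fold changes were 0.10 and 0.06, against 0.02 and 0.02 for all genes. Gadd45a, a growth arrest gene, rose in both genotypes (1.81 ± 0.11 and 1.46 ± 0.11), as did Nt5e, which encodes CD73 (1.29 ± 0.18 and 1.5 ± 0.18), whereas the transcription factor gene Foxf2 fell (-1.84 ± 0.22 and -1.72 ± 0.22). Between genotypes, 1 of the 20 was called higher (Tgfb2, a TGFβ ligand, 0.53 ± 0.17) and 1 lower (Axl, a receptor tyrosine kinase, -0.65 ± 0.19) at 3 dpi, against 6.28% of all genes. None was called at 7 dpi, where 5 met the unadjusted rule, against 11.1% of all genes.

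Of 17 genes of the Hippo pathway and TEAD partners, 3 were higher and 6 lower at 7 dpi in Ctrl, and 2 were higher and 6 lower in cKO, beside 54.4% and 50.0% of all genes called. Wwtr1, which encodes TAZ, rose (0.75 ± 0.09 in Ctrl and 0.47 ± 0.09 in cKO), and Vgll3, a TEAD cofactor, fell (-1.59 ± 0.12 and -1.38 ± 0.12). None was called between genotypes on either day, and Tead3 met the unadjusted rule at 7 dpi (-0.32 ± 0.10, adjusted p = 0.337).

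Of 12 TGFβ response genes, 4 were higher and 4 lower at 7 dpi in Ctrl, and 2 were higher and 5 lower in cKO, beside 54.4% and 50.0% of all genes called. Timp1, a metalloproteinase inhibitor, fell in both genotypes (-1.86 ± 0.33 in Ctrl and -1.72 ± 0.33 in cKO). None was called between genotypes, although Tgfbi (0.56 ± 0.15, adjusted p = 0.304) and Timp1 (0.67 ± 0.20, adjusted p = 0.322) met the unadjusted rule at 7 dpi, both higher in cKO. The other 10 genes of the list had values below 0 there (list median -0.075), but the direction depended on the scaling, since on unscaled TPM 10 of the 12 were above 0 (median 0.056).

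MRTF/SRF targets, the actin-linked genes that share serum induction with Ccn1 and Ccn2, lay mostly above 0 in cKO minus Ctrl. Their median log2 fold change was 0.64 at 3 dpi (9 of 10 above 0) and 0.55 at 7 dpi (8 of 10 above 0), against 0.01 and 0.00 for all genes. By the unadjusted rule, 6.28% of all genes were called at 3 dpi and 11.1% at 7 dpi. Summed over these 10 targets, the genotypes overlapped at 3 dpi, with 1267 and 1593 TPM in Ctrl and 2506 and 1537 TPM in cKO. They did not overlap at 7 dpi, with 1590 and 1122 TPM in Ctrl and 2221 and 1901 TPM in cKO. By the unadjusted rule, 1 was called at 3 dpi (Vcl, vinculin, 0.68 ± 0.19), and 1 to 6 were with a library left out or under other settings. At 7 dpi 4 were higher and 1 lower by that rule, with Cnn1 (1.28 ± 0.34) and Tpm1 (0.66 ± 0.17) among them, and none had an adjusted p under 0.1, against 0 to 6 with a library left out (6 without replicate 1 of Ctrl). Of 12 Wnt/beta-catenin targets, 10 could be tested at 3 dpi and 9 at 7 dpi, and none was called between genotypes by either rule. For day, 10 were tested, of which 4 were higher and none lower in Ctrl, and 3 were higher and 1 lower in cKO, beside 54.4% and 50.0% of all genes called.

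FAPs also expressed the partners that CCN proteins bind. Among 20 receptors and binding partners, 19 were tested for day, of which 6 rose and 5 fell in Ctrl and 5 rose and 3 fell in cKO, against 54.4% and 50.0% of all genes called. Integrin α5 (Itga5) fell from 1229 to 1442 TPM at 3 dpi to 578 to 790.5 TPM at 7 dpi, with a log2 fold change of -1.11 ± 0.19 in Ctrl and -1.001 ± 0.19 in cKO. The proteoglycan gene Dcn rose (1.06 ± 0.20 and 1.29 ± 0.20), and the Wnt co-receptor gene Lrp6 rose in Ctrl (0.78 ± 0.15). No partner was called between genotypes. The nearest to a call at 3 dpi was Itgav, the αv integrin chain (0.29 ± 0.12, adjusted p = 0.784). At 7 dpi 1 partner was higher and 3 were lower in cKO by the unadjusted rule, against 11.1% of all genes. Lrp6 had the smallest limma p of these and was lower (-0.30 ± 0.08, adjusted p = 0.297).

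Profiles over the 8 libraries were compared by the root mean square difference of log2(scaled TPM + 1), each gene centered on its own mean, among 14283 genes. Closest to Ccn1 were Zfyve21 (0.12), S1pr2 (0.12) and Ier2 (0.14), and closest to Ccn2 were Gadd45gip1 (0.26), Gbx2 (0.28) and Lhx2 (0.29). Olfml2a (0.19), Gask1a (0.29) and Itih5 (0.30) were closest to Ccn3. For Ccn4 they were Arg1 (0.13), Trpv2 (0.14) and Rps2-ps5 (0.15), a pseudogene whose reads may come from its parent gene. Arg1 was at only 0.108 to 1.74 TPM and Rps2-ps5 at 0.473 to 1.49 TPM, levels at which this scale shrinks changes. Smad6 (0.17), an inhibitory SMAD, was among the closest to Ccn5 and shared its single high library at 3 dpi. Within the family, Ccn1 and Ccn4 had the smallest difference (0.32) and Ccn3 and Ccn5 the largest (2.22). The root mean square of the centered profile itself was 0.30 for Ccn1 and 0.32 for Ccn4. Their small difference thus reflects that both varied little and does not show a shared profile. These 8 points fall into 4 groups and 2 days, so the values describe these libraries and no test was made.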

How the data were processed

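Paired-end reads of stranded polyA libraries were mapped by the authors with STAR (mm10), who normalized fragment counts with DESeq2 and deposited TPM per gene symbol. The fragment counter, its annotation and its use of strand are not given in the sources used here. Of 55385 entries per library, 109 further entries of 106 repeated symbols were left out. TPM times GENCODE M21 exon length gave whole fragments, within 0.02, for 98.7% to 98.9% of values under 50 fragments, and 53275 of 55276 symbols had 1 length. For scaling, log ratios to the mean over libraries were averaged after trimming 30% at each end. Genes with at least 10 fragments in 2 libraries and 15 in all libraries of a fit, or a mean TPM of at least 1 where no length was found, were tested with limma 3.58.1 (lmFit, eBayes with trend, R 4.3.3) on log2(scaled TPM + 1), a scale that understates changes of low genes. Each genotype effect used the 4 libraries of its day, and day effects and the interaction used all 8. Thresholds for genotype follow the study's methods, but the study tested with DESeq2, so the calls here are not its calls. Tables and figures used Python 3.11.15, pandas 2.3.3, NumPy 2.4.6 and matplotlib 3.10.9. The procedure was tested on simulated data.

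Members, gene lists and tests were chosen with earlier results of these data known, so no list is independent evidence. All members are named, and of each other list at most 3 genes per comparison, those of smallest p, plus the 3 genes most like each member. Acta2, Fos, Fosb, Egr1, Jun, Junb, Ier3, Dusp1, Klf2, Ptprc, Pecam1 and Gm15270, and Pdgfra and Itga5 where given as levels, were named beyond this rule. Some genes that the rule names are not reported here. Nothing in the labels says that same-numbered libraries share an animal. P-values measure the spread of 2 libraries a group. Alternatives were other scalings, filters, pseudocounts, robust eBayes, limma-voom on recovered fragments, a replicate block, other sets of libraries and leaving out each library, where the lone library of its group is assumed to vary like the other groups in the fit.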

Additional observations from a re-analysis of the deposited data

How the results depend on the processing

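Among the members' log2 fold changes, 242 of the values under other settings kept their direction and their side of the threshold, 5 gained a call, 1 lost it and 2 reversed. With a library left out, 137 did so, 5 gained a call, 2 lost it and 16 reversed. The reversals under other settings were Ccn5 at 7 dpi, 0.12 on unscaled TPM and 0.010 in the fit of all 8 libraries. Leaving out each library gave genotype values at 3 dpi of -0.46 to 0.31 for Ccn1, -0.25 to 0.73 for Ccn2 and -1.21 to 0.041 for Ccn5, and at 7 dpi of -0.67 to 0.063 for Ccn3, -0.073 to 0.24 for Ccn4 and -0.056 to 0.037 for Ccn5. For day, it gave -0.20 to 0.58 for Ccn1 in Ctrl, and -0.50 to 0.25 for Ccn1 and -0.65 to 0.034 for Ccn4 in cKO. For the interaction it gave -0.70 to 0.074 for Ccn1, -0.11 to 0.61 for Ccn3 and -0.038 to 1.15 for Ccn5. The number of members called at 3 dpi was 0 at an adjusted p under 0.1, and at 7 dpi it was 1 at an unadjusted p under 0.05. With a library left out it was 0 to 1 for the interaction. At 3 dpi it stayed at 1 when any library was left out, but the gene was Ccn5 without replicate 2 of Ctrl and Ccn4 without replicate 2 of cKO. In Ctrl, Ccn2 was also called for day on unscaled TPM (adjusted p = 0.0917) and with limma-voom (adjusted p = 0.0865). Over all other settings, its limma adjusted p ranged from 0.0283 to 0.232. The causes were not tested.

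Same-numbered libraries did not deviate together (correlation of deviations across genes -0.12 at 3 dpi and 0.07 at 7 dpi). A replicate block left 1 member called at 3 dpi, none at 7 dpi and 3 for day in Ctrl, with Ccn2 at an adjusted p of 0.0283, and 3 in cKO. A replicate block with crossed numbers, chosen after seeing the data, gave 2 at 3 dpi.

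Over all genes, the 985 calls at 3 dpi became 1801 in the fit of all 8 libraries and 410 to 2801 with a library left out, and at an adjusted p under 0.1 none became 13 and 0 to 42. The 11 calls at 7 dpi became 0 on unscaled TPM, without a filter, at a mean TPM of at least 1 and in the fit of all 8 libraries, 188 with limma-voom, 27 with the block and 5 to 315 with a library left out. The unadjusted count of 1843 became 1199 in the fit of all 8 libraries. For the interaction, none became 40 without a filter, 1 at a mean TPM of at least 1, 2 and 3 with pseudocounts of 0.5 and 0.1, and 0 to 105 with a library left out. Its unadjusted count of 1176 ranged from 761 to 2587 with a library left out, and unscaled TPM gave 1170 higher and 288 lower genes in place of 629 and 547.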

Other observations

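Marker genes of tenocytes and of smooth muscle and pericytes were read beside the CCN genes. Whether FAPs or other cells expressed them was not tested. By deconvolution, the paper described the knockout FAPs as shifted toward a tenocyte cluster. Of all genes tested, 54.4% were called for day in Ctrl and 50.0% in cKO. All 6 tenocyte markers rose from 3 to 7 dpi in both genotypes, with medians of 1.92 in Ctrl and 2.14 in cKO on the log2 scale. Tnmd, a tendon membrane protein, was at 2.85 to 4.73 TPM at 3 dpi and at 64.9 to 350 TPM at 7 dpi. The summed list was at 578 and 815 TPM in Ctrl and 1831 and 1599 TPM in cKO at 3 dpi, and at 2417 to 3616 TPM at 7 dpi. Thbs4 made up most of this sum, at 517 and 766 TPM in Ctrl and 1747 and 1552 TPM in cKO at 3 dpi. The summed list was higher at 7 dpi in both genotypes, and at 3 dpi it was higher in cKO. All 6 genes had a log2 fold change above 0 in cKO minus Ctrl at 3 dpi. Fmod still overlapped between genotypes there, with 55.9 and 39.5 TPM in Ctrl and 66.5 and 35.6 TPM in cKO. Between genotypes, 2 of the 6 tenocyte markers were called at 3 dpi (Thbs4 1.39 ± 0.25 and Kera 0.65 ± 0.21), against 6.28% of all genes. At 7 dpi 4 met the unadjusted rule, against 11.1% of all genes, and none the adjusted one. Smooth muscle and pericyte markers summed to 256 to 791 TPM at 3 dpi, where the genotypes overlapped. At 7 dpi they summed to 534 and 259 TPM in Ctrl and 787 and 666 TPM in cKO, mostly from Acta2. These did not overlap, and neither did 53.5% of all genes on that day. Of these, 3 of 7 rose for day in each genotype and 1 fell in cKO, near the shares of all genes. None was called between genotypes, although Acta2 met the unadjusted rule at 7 dpi (1.10 ± 0.36, adjusted p = 0.342), against 11.1% of all genes. The part of these and of the tenocyte markers in the CCN values was not tested.

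Markers of cells that the sort should remove were low in every library. Macrophage markers summed to 12.1 to 23.5 TPM at 3 dpi and 48.5 to 75.4 TPM at 7 dpi, endothelial markers to 17.2 to 44.7 and 47.6 to 72.6 TPM, muscle stem cell markers to 5.52 to 7.76 and 13.6 to 41.8 TPM, and myofiber markers to 8.52 to 14.5 and 42.7 to 73.1 TPM. Schwann cell markers summed to 2.47 to 22.4 TPM and erythroid genes to 0 to 54.2 TPM over all libraries. By contrast, FAP identity genes summed to 27654 to 56708 TPM. For day 4 of 10 rose and 3 fell in each genotype, beside 54.4% of all genes called in Ctrl and 50.0% in cKO. Ly6a alone, which encodes Sca1, was called between genotypes (-0.95 ± 0.34 at 3 dpi, where 6.28% of all genes were called). In the immediate early and dissociation list 9 of 16 rose for day in Ctrl and none fell, and 9 rose and 2 fell in cKO. That is beside 54.4% and 50.0% of all genes called, and the list medians were 0.70 and 0.65. At 3 dpi 1 of the 16 was called between genotypes (Hspa1b -0.59 ± 0.15), against 6.28% of all genes.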
